A study of Mus musculus with 30 samples.

Results

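The growth hormone and IGF1 axis of the liver was followed through 10 genes: *Ghr*, *Igf1*, *Igfals*, *Socs2*, *Cish*, *Stat5b*, *Igfbp1*, *Igfbp2*, *Igfbp3* and *Igfbp4*. They were taken by gene symbol from count tables that hold 14173 genes. All 10 were in the tables, and all 10 passed the filter on low counts in every comparison. Liver RNA came from 30 male C57BL6/J mice labelled as 6 months old, 6 mice on each of 5 diets, with 1 library per mouse, so mice are the replicates. Each diet had 10 mice in the study, all switched at 12 weeks of age, kept on the diet for 12 weeks and killed after a 4 h fast. The Cas-20% diet had 20% casein, with 0.57 g methionine and 0.41 g cysteine per 100 g, and the Cas-5% diet had 5% casein, with 0.15 g and 0.1 g. The Soy-20% diet had 20% soy protein with 0.22 g of each amino acid. The Soy-20% + SAA diet had 20% soy protein to which both sulfur amino acids (SAA) were added, giving 0.58 g methionine and 0.41 g cysteine. The Soy-10% diet had 11.5% soy protein with 0.13 g of each. Before the switch the mice of both casein diets had eaten Cas-20% and those of the 3 soy diets Soy-20%. Each restricted diet was therefore lower than its control in protein as well as in sulfur amino acids, and these cannot be told apart here. Cas-5% and Soy-10% were close in sulfur amino acids but not in protein content or source.

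Growth hormone from the pituitary binds its receptor on hepatocytes, the product of *Ghr*, and JAK2 bound to the receptor phosphorylates STAT5B, which enters the nucleus and drives transcription of *Igf1*, *Igfals*, *Socs2* and *Cish*. The proteins made from *Socs2* and *Cish* then dampen signalling from the receptor. IGF1 secreted by the liver circulates mostly in a complex with IGFBP3 and the acid-labile subunit encoded by *Igfals*, whereas IGFBP1, IGFBP2 and IGFBP4 form smaller complexes with it. *Igfbp1* is repressed by insulin and is known to be induced by fasting and by amino acid shortage.

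The promoters of 3 members are shown because they carry motifs that belong to the known inputs of the axis. The sequences are RefSeq promoter windows of mouse build GRCm38.p6, 300 bases long, with 250 bases before and 50 after the annotated start, and 14 windows matched 9 of the 10 members, with none for *Socs2*. All 3 lie on the plus strand, at chr11:7197537-7197836 for *Igfbp1*, chr9:107296409-107296708 for *Cish* and chr17:24877981-24878280 for *Igfals*. Capitals mark the motif CAAAANA of the insulin response element in *Igfbp1*, and the motif TTCNNNGAA that STAT5 proteins recognise in *Cish* and *Igfals*. Both were searched on both strands.
Igfbp1: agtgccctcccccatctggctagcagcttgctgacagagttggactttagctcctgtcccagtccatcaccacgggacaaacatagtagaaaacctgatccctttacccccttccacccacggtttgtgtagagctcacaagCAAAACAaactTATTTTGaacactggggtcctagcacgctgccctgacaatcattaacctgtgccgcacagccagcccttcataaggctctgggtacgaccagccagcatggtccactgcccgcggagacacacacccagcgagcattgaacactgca
Cish: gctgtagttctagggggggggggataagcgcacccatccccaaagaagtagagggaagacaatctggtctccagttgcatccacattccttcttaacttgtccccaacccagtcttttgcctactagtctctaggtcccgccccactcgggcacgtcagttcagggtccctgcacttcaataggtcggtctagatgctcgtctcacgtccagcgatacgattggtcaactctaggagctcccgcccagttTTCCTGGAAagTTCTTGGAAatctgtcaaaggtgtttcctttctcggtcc
Igfals: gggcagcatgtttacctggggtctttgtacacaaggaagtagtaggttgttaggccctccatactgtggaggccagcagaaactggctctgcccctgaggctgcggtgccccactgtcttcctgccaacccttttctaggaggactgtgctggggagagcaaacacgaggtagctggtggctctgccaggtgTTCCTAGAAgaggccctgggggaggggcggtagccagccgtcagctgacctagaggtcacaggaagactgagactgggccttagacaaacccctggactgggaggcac

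The *Igfbp1* window holds the CAAAANA motif at bases 143 to 149 and, on the other strand, at bases 154 to 160. Of 32851 mouse promoter windows of that length, 18.6% held this motif at least once and 3.14% held at least 2 copies. The *Cish* window holds TTCNNNGAA at bases 251 to 259 and 262 to 270, immediately after the annotated start. Of all windows, 8.3% held this motif and 0.46% held at least 2 copies. *Igfals* has it at bases 193 to 201 of the window shown and at bases 15 to 23 of a second window upstream. The *Cish* window also holds CAAAANA, at bases 113 to 119 on the other strand. A further 3 motifs were searched, TATAAA (in 13.6% of all windows), the forkhead core GTAAACA (3.6%) and TTGCATCA of ATF4 and C/EBP (0.9%), and no matches overlapped in these windows. The *Igfals* window shown holds the forkhead core at bases 9 to 15, and TATAAA lies at bases 223 to 228 of the *Igfbp4* window and at 63 to 68 of a *Ghr* window. A single copy of either motif is thus common among promoters, and these matches describe letters in a window, not binding.

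The members lie on 6 chromosomes of build GRCm38. *Ghr* (ENSMUSG00000055737) is at chr15:3317760-3583492 and *Igf1* (ENSMUSG00000020053) at chr10:87858265-87937042, where the antisense gene Igf1os overlaps it but had at most 11 counts in any library. *Igfbp1* (chr11:7197782-7202546) and *Igfbp3* (chr11:7206086-7213923) are neighbours on opposite strands whose 3′ ends face each other 3539 bp apart. The libraries were made from the 3′ ends of transcripts, so each count is a read close to a poly(A) site, and isoforms that share a 3′ end cannot be told apart.

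Library totals ran from 7694015 to 14565542 counts, with a median of 10803734. Hepatocyte marker genes, 7 of 8 listed, were read at 811707 to 1056360 summed normalised counts per liver. Of the Soy-20% + SAA libraries, those of livers 3 to 6 stood apart in how counts depended on the base composition of transcript 3′ ends: their slope was 0.0566 to 0.219 log2 units per 10 percentage points of GC (G and C content of the last 200 bases), against −0.075 to 0.0425 in the other 26 libraries. Of these 4, library 3, at 0.0566, lay close to the other 26, and libraries 4 to 6 were at 0.1922 to 0.219. For members and named genes compared with this diet, the value without those 4 libraries, which leaves 2, stands beside a result that they changed in sign, size or call. One Soy-10% library, that of liver 4, held 7392 summed normalised counts of 7 pancreatic acinar markers, against at most 9.58 in any other library. In whole liver, fewer cells of a type and less RNA per cell cannot be told apart.

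Across the 5 diets, 7 of the 10 members differed by the edgeR quasi-likelihood F test with Benjamini-Hochberg adjustment over all 12561 genes tested, against 43.4% of all genes. These were *Ghr* (adjusted p = 0.000332), *Igf1* (0.00136), *Igfals* (0.0341), *Igfbp1* (2.73e-05), *Igfbp2* (0.00806), *Igfbp3* (0.0126) and *Igfbp4* (0.00307). *Socs2* (0.547), *Cish* (0.203) and *Stat5b* (0.131) did not pass. With the 3′ GC slope of each library as a covariate, *Ghr*, *Igf1*, *Igfbp1* and *Igfbp2* still passed, and *Igfals*, *Igfbp3* and *Igfbp4* did not. The call of *Igfals* was also lost in 8 of 30 fits that left out a liver, those without Cas-5% liver 1, 3, 4, 5 or 6 or Soy-20% + SAA liver 3, 4 or 5 (highest adjusted p = 0.0834). Without the 4 Soy-20% + SAA libraries, 6 members passed, *Igfals* being the one lost.

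**Figure D1:**
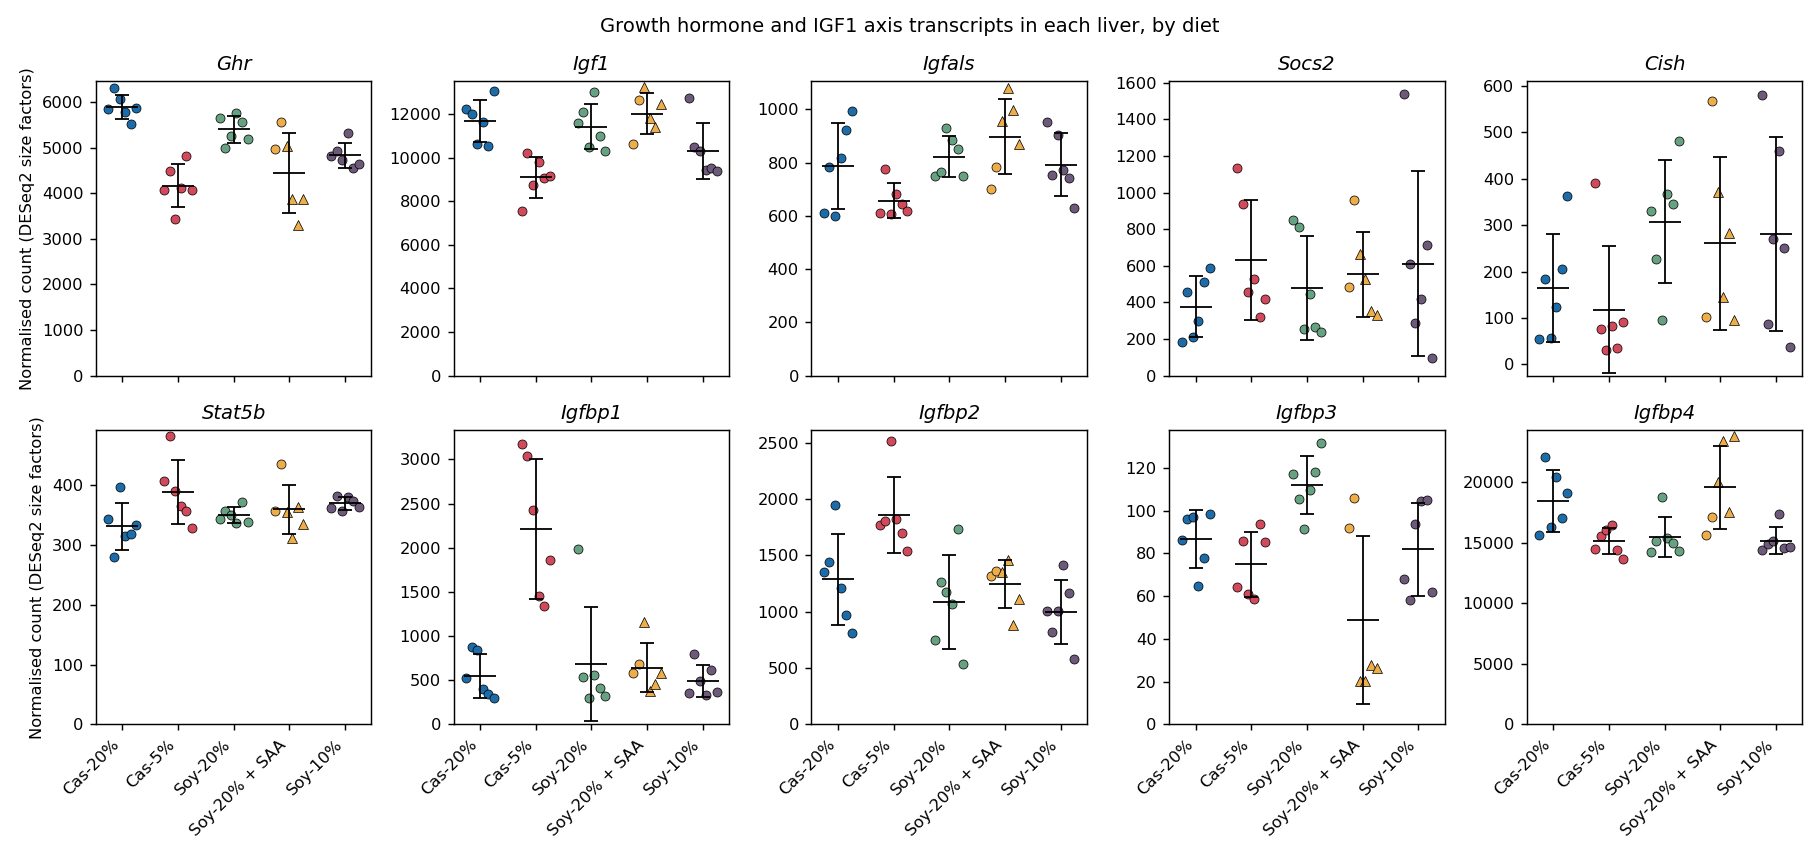
Normalised counts (vertical axis, linear, DESeq2 size factors) of the 10 members in each of 30 livers, by diet, with 6 points per diet, the mean as a bar and the SD as whiskers; triangles are Soy-20% + SAA libraries 3 to 6. The 6 Cas-5% livers lie above all Cas-20% livers for *Igfbp1* and below all of them for *Ghr* and *Igf1*, and the 4 triangles lie below every other liver for *Igfbp3*.

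Restriction of casein from 20% to 5% was compared first. The receptor and IGF1 transcripts were lower and 2 binding proteins were higher in Cas-5% livers: of the 10 members, *Igfbp1* and *Igfbp2* rose, and *Ghr*, *Igf1* and *Igfbp4* fell. Over all 12076 genes tested 24.9% were called, 11.6% higher and 13.3% lower, so 5 of 10 members are read against that share. The members' median log2 fold change was −0.22, against 0.02 over all genes.

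*Ghr* encodes the growth hormone receptor. It ran from 5534 to 6317 normalised counts in Cas-20% livers, with a median of 5857, and from 3436 to 4832 in Cas-5% livers, with a median of 4092. The diets did not overlap. The fall was 0.49 on the log2 scale (fell by 28.7%; 95% interval −0.65 to −0.33; adjusted p = 0.000178). Leaving out each liver in turn did not end this call.

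*Igf1*, the secreted growth factor, ran from 10554 to 13046 in Cas-20% livers (median 11819) and from 7552 to 10238 in Cas-5% livers (median 9121), again without overlap. Its log2 fold change was −0.35 (fell by 21.4%; interval −0.52 to −0.18; adjusted p = 0.00433). *Igfals*, the stabilising subunit of circulating IGF1, ran from 598 to 994 and from 608 to 778, and the diets overlapped. It did not pass the test (log2 fold change −0.25, interval −0.49 to −0.0034, adjusted p = 0.131), though it did when Cas-20% liver 1 or 3 was left out (lowest adjusted p = 0.0409).

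*Igfbp1*, the insulin-repressed binding protein whose promoter is printed above, gave the largest change of the members. The Cas-20% livers held 298, 340.5, 404.5, 523, 845 and 877 normalised counts in rising order, and the Cas-5% livers 1346, 1449, 1857, 2423, 3041 and 3178. Every Cas-5% liver was above every Cas-20% liver. The log2 fold change was 2.03 (4.08-fold; interval 1.43 to 2.62; adjusted p = 5.71e-05). The mean rose from 548 ± 254 (SD, n = 6) to 2216 ± 790 (SD, n = 6).

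*Igfbp2*, another IGF-binding protein of hepatocytes, ran from 807 to 1946 in Cas-20% livers (median 1279) and from 1539 to 2514 in Cas-5% livers (median 1787). The diets overlapped, with 1 Cas-5% liver above all Cas-20% livers. It rose by 0.54 log2 units (interval 0.19 to 0.90; adjusted p = 0.0268), and the call was lost without Cas-20% liver 4, Cas-20% liver 5 or Cas-5% liver 3 (highest adjusted p = 0.071) and in a fit over all 30 livers. *Igfbp4*, which binds IGF1 in tissues, ran from 15662 to 22069 (median 18075) and from 13663 to 16428 (median 15010), and fell by 0.27 log2 units (adjusted p = 0.0349). That call was lost in 7 of 12 fits that left out a liver, those without Cas-20% liver 2, 4 or 6 or Cas-5% liver 1, 2, 5 or 6 (highest adjusted p = 0.0803), and with the 3′ GC slope as a covariate the log2 fold change was −0.19 (adjusted p = 0.169). The GC slope of Cas-20% libraries ran from −0.0345 to 0.0425 and that of Cas-5% libraries from −0.0676 to 0.0132, and its part in the *Igfbp4* difference was tested only by that covariate.

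*Igfbp3*, the main carrier of circulating IGF1, is read at low counts in whole liver, with 64.7 to 98.6 in Cas-20% livers and 58.6 to 93.8 in Cas-5% livers. The diets overlapped (log2 fold change −0.19, interval −0.49 to 0.11, adjusted p = 0.35). *Stat5b*, the transcription factor below the receptor, ran from 279.6 to 397 and from 328 to 482 (log2 fold change 0.24, interval 0.04 to 0.45, adjusted p = 0.0756). It passed when Cas-20% liver 3 or Cas-5% liver 6 was left out and in a fit over all 30 livers.

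The feedback inhibitors were the most variable members. *Socs2* ran from 185 to 590.2 in Cas-20% livers (median 379.6) and from 318 to 1134 in Cas-5% livers (median 491), with a log2 fold change of 0.76 (interval 0.08 to 1.43, adjusted p = 0.0955). *Cish* ran from 55.1 to 363 (median 153) and from 32.0 to 392 (median 79.5), with a log2 fold change of −0.46 (interval −1.63 to 0.70, adjusted p = 0.587). The value rested on 1 liver, since Cas-5% liver 1 held 391.8 counts and the next Cas-5% liver 90.7, and without it the log2 fold change was −1.37 (adjusted p = 0.035). *Socs2* passed when Cas-5% liver 5 was left out (adjusted p = 0.0484). Neither inhibitor was called with all 12 livers.

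Restriction of soy from 20% with added sulfur amino acids to 11.5% was tested next, with Soy-20% + SAA as the control. Only *Igfbp4* was called among the 10 members, and it was lower in Soy-10% livers, in a comparison that called 17.0% of 11983 genes. The members' median log2 fold change was −0.07, against −0.01 over all genes. *Igfbp4* ran from 14377 to 17322 in Soy-10% livers (median 14767) and from 15586 to 23791 in Soy-20% + SAA livers (median 18764), a log2 fold change of −0.37 (interval −0.59 to −0.15, adjusted p = 0.0273). Libraries 3 to 6 of the control held 17514 to 23791 and libraries 1 and 2 held 15586 and 17106. Without those 4 libraries the log2 fold change was −0.12 (adjusted p = 0.56), and with the GC slope as a covariate −0.13 (adjusted p = 0.51). Leaving out single livers ended the call in 7 of 12 fits, those without Soy-10% liver 1, 2, 3, 5 or 6 or Soy-20% + SAA liver 4 or 6 (highest adjusted p = 0.0617). The 3′ end of *Igfbp4* is GC-rich, at 53.3% against a median of 44.2%.

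The members that changed on casein restriction were measured as follows on soy. *Ghr* ran from 4559 to 5323 in Soy-10% livers (median 4777) and from 3302 to 5563 in Soy-20% + SAA livers (median 4435), with a log2 fold change of 0.12 (interval −0.12 to 0.36, adjusted p = 0.473). Libraries 4 to 6 of the control held the lowest 3 values of that diet, 3302, 3873 and 3885, and without libraries 3 to 6 the estimate was −0.13 (adjusted p = 0.462). *Igf1* ran from 9395 to 12764 (median 9911) and from 10616 to 13238 (median 12146), with 5 of 6 Soy-10% livers below every control liver. Its log2 fold change was −0.22 (interval −0.41 to −0.04, adjusted p = 0.0804), which passed when Soy-10% liver 1 or Soy-20% + SAA liver 1 was left out and in a fit over 30 livers. It was −0.18 without libraries 3 to 6 (adjusted p = 0.487).

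*Igfbp1* was not called on soy restriction. It ran from 329.5 to 796 in Soy-10% livers (median 431) and from 376 to 1165 in Soy-20% + SAA livers (median 585), and the log2 fold change was −0.38 (interval −0.94 to 0.18, adjusted p = 0.331). The estimate without libraries 3 to 6 was −0.36 (adjusted p = 0.549). The upper end of the interval with all libraries is below the lower end of the interval on casein. *Igfbp2* ran from 577 to 1410 and from 878 to 1458 (log2 fold change −0.32, interval −0.70 to 0.05, adjusted p = 0.212), and its value without those libraries was −0.43 (adjusted p = 0.37).

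The other members of the signalling chain overlapped between these soy diets. *Igfals* ran from 629 to 952 in Soy-10% livers and from 699 to 1082 in Soy-20% + SAA livers (log2 fold change −0.18, interval −0.43 to 0.06, adjusted p = 0.284). *Stat5b* ran from 356 to 383 and from 311 to 435 (0.04, interval −0.13 to 0.20, adjusted p = 0.758). The widest ranges were again those of *Socs2*, at 94.0 to 1537 in Soy-10% livers and 328 to 958 in the control (0.14, interval −0.84 to 1.13, adjusted p = 0.855), and of *Cish*, at 38.0 to 581 and 94.8 to 568 (0.11, interval −1.07 to 1.29, adjusted p = 0.907). For both inhibitors the intervals allow a change of over 1.5 times in either direction. The sign of all 4 genes turned without Soy-20% + SAA libraries 3 to 6, to 0.09 for *Igfals* (adjusted p = 0.798), −0.10 for *Stat5b* (adjusted p = 0.619), −0.25 for *Socs2* (adjusted p = 0.893) and −0.26 for *Cish* (adjusted p = 0.902), so no direction is given for them on soy.

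*Igfbp3* split by library within the Soy-20% + SAA diet. Soy-20% + SAA livers 1 and 2 held 91.7 and 106 normalised counts, within the range of 58.1 to 131.6 in the 24 livers of the other diets. Livers 3 to 6 held 20.3, 20.1, 28.0 and 26.2, below every other liver. The slopes of these 4 libraries with 3′ end GC were, in the same order, 0.0566, 0.1922, 0.193 and 0.219. The 3′ end of *Igfbp3* has 29.5% GC, which places it at the 2.0 percentile of genes. Against Soy-10% the log2 fold change was 0.76 with all libraries (adjusted p = 0.184), −0.29 without libraries 3 to 6 (adjusted p = 0.576) and 0.08 with the slope as a covariate (adjusted p = 0.935). It passed without Soy-20% + SAA liver 2 (1.13, adjusted p = 0.0346).

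**Figure D2:**
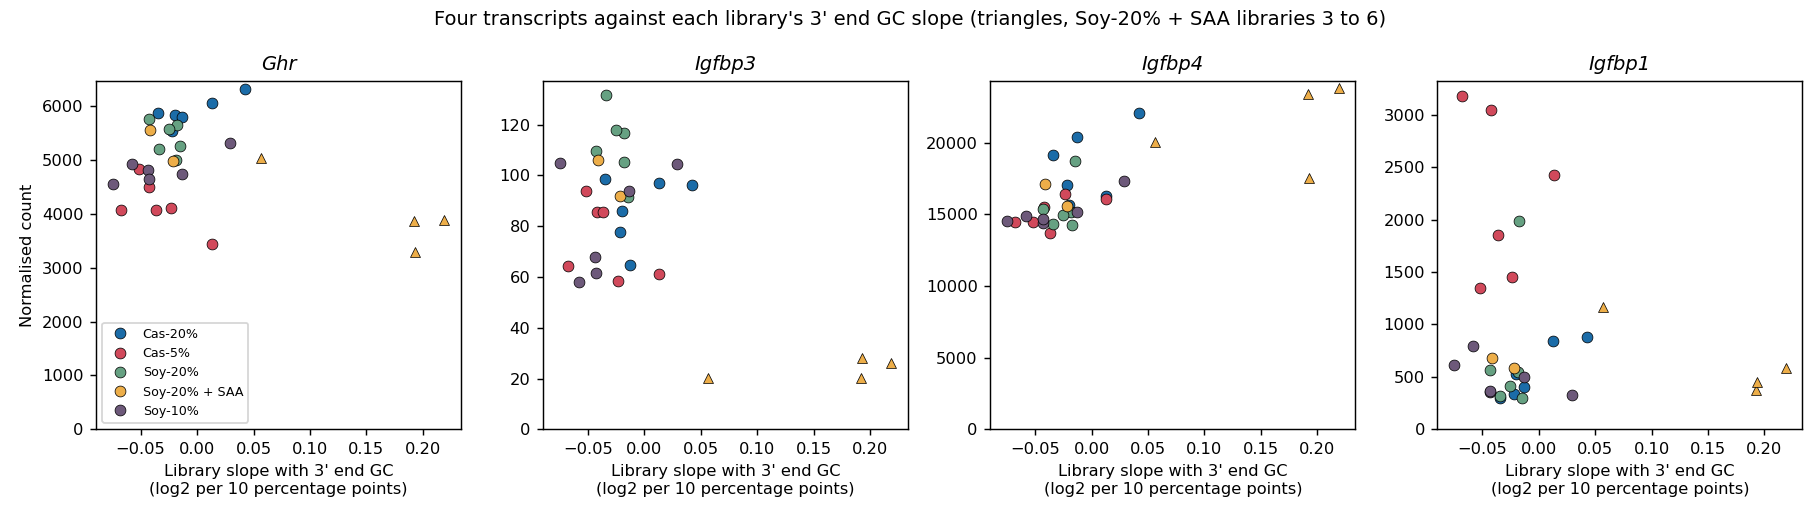
Normalised counts of *Ghr*, *Igfbp3*, *Igfbp4* and *Igfbp1* (vertical axes, linear) against the slope of each library's counts with 3′ end GC (horizontal axis, log2 units per 10 percentage points), 1 point per liver, coloured by diet; triangles are Soy-20% + SAA libraries 3 to 6. The triangles lie to the right of the other 26 libraries, at 20.1 to 28.0 counts for *Igfbp3* and 17514 to 23791 for *Igfbp4*, while the Cas-5% livers with high *Igfbp1* lie among the other libraries.

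Against Soy-20%, the control without added sulfur amino acids, Soy-10% livers had no called member. That comparison called 0.866% of 11897 genes. At an unadjusted p under 0.05 edgeR gave 2 of 10 members and 12.3% of all genes, and DESeq2 called 0 members. *Ghr* was lower in 5 of 6 Soy-10% livers than in any Soy-20% liver (log2 fold change −0.16, interval −0.28 to −0.04, adjusted p = 0.222). *Igfbp3* ran from 58.1 to 104.8 in Soy-10% livers and from 91.4 to 132 in Soy-20% livers (log2 fold change −0.47, interval −0.78 to −0.15, adjusted p = 0.179). *Igfbp1* ran from 302 to 1984 in Soy-20% livers, where liver 1 held 1983.9 and the next liver 564.4, and the log2 fold change was −0.48 (interval −1.31 to 0.36, adjusted p = 0.692). For *Igf1* the estimate was −0.15 (interval −0.32 to 0.02, adjusted p = 0.499). *Igfbp4*, called against Soy-20% + SAA, was at −0.03 against Soy-20% (interval −0.19 to 0.13, adjusted p = 0.925). Both soy comparisons share the 6 Soy-10% livers.

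Of the 3 control diets, Soy-20% and Cas-20% were each compared with Soy-20% + SAA to see whether the axis differed without restriction. Cas-20% against Soy-20% was not fitted. Soy-20% against Soy-20% + SAA called no member and 0.00838% of 11932 genes, which was 1 gene. At an unadjusted p under 0.05 edgeR gave 3 of 10 members and 24.2% of all genes, and DESeq2 called 0 members. *Igfbp3* was 1.23 log2 units higher in Soy-20% (adjusted p = 0.0849) with all libraries and 0.18 without Soy-20% + SAA libraries 3 to 6 (adjusted p = 0.852). With the same libraries left out, *Ghr* went from 0.29 to 0.03 and *Igfbp4* from −0.33 to −0.08. Cas-20% against Soy-20% + SAA also called no member, with 2.43% of 11988 genes called. Here edgeR gave 2 of 10 members and 26.2% of all genes at an unadjusted p under 0.05, and DESeq2 called 1 member, *Ghr*. *Ghr* was 0.41 log2 units higher in Cas-20% (interval 0.17 to 0.66, edgeR adjusted p = 0.0578, DESeq2 adjusted p = 0.0167), and 0.16 without libraries 3 to 6 (adjusted p = 0.755). Cas-20% and Soy-20% met only in the permutation tests of the order of diets below. There *Ghr* (exact p = 0.0173) and *Igfbp4* (0.0368) were higher in Cas-20% and *Igfbp3* (0.00866) in Soy-20%, and none passed after adjustment. For *Igf1*, *Igfbp1*, *Socs2* and *Stat5b* the exact p was 0.2597 or more, and for the other members the 2 diets were not neighbours.

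The 2 restricted diets, Cas-5% and Soy-10%, differed in 2 of the 10 members, both binding proteins, against 10.7% of 12041 genes called. *Igfbp1* was 2.18 log2 units higher in Cas-5% livers (4.54-fold; interval 1.68 to 2.68; adjusted p = 1.66e-05), and the lowest Cas-5% liver, at 1346, was above the highest Soy-10% liver, at 796. *Igfbp2* was 0.92 log2 units higher (interval 0.58 to 1.25; adjusted p = 0.00118), and its ranges of 1539 to 2514 and 577 to 1410 did not overlap. *Ghr* (−0.20, interval −0.35 to −0.04, adjusted p = 0.0962) and *Igf1* (−0.16, interval −0.34 to 0.02, adjusted p = 0.244) did not pass, nor did *Igfals* (−0.25, interval −0.44 to −0.06, adjusted p = 0.0826). *Ghr* passed without Cas-5% liver 5 (adjusted p = 0.0379), and *Igfals* without Cas-5% liver 2 or Soy-10% liver 6. *Cish* was estimated at −1.23 (interval −2.45 to −0.02, adjusted p = 0.193), and at −2.14 without Cas-5% liver 1 (adjusted p = 0.0157).

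Whether the effect of restriction differed between the casein and soy diets was tested as a difference of effects in 24 livers, the casein effect minus the soy effect. Casein was cut from 20% to 5% and soy protein from 20% to 11.5%, so source and extent of restriction cannot be told apart. With Soy-20% as control the fall in methionine also differed, from 0.22 to 0.13 g per 100 g on soy and from 0.57 to 0.15 g on casein. With Soy-20% + SAA as the soy control, 3 of 10 members were called, against 8.69% of 12532 genes. With Soy-20% as the soy control, 2 of 10 were called, against 5.99% of 12450 genes. These fits share the casein livers and the Soy-10% livers with each other and with the comparisons above.

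*Igfbp1* differed under both controls: the difference of effects was 2.40 log2 units with Soy-20% + SAA (interval 1.54 to 3.26, adjusted p = 0.00149), 2.38 without its libraries 3 to 6 (adjusted p = 0.00595) and 2.50 with Soy-20% (interval 1.40 to 3.59, adjusted p = 0.00415). *Ghr* differed by −0.61 with Soy-20% + SAA (interval −0.90 to −0.33, adjusted p = 0.00907). Without libraries 3 to 6 the value was −0.36 (adjusted p = 0.121), and with Soy-20% as control −0.33 (interval −0.52 to −0.14, adjusted p = 0.0315), so its size moved by over 1.5 times with the 4 libraries. That last call was lost in 5 of the 24 fits that left out a liver (highest adjusted p = 0.0603): Cas-20% liver 2, Cas-5% liver 4, Soy-10% liver 2 or 4, or Soy-20% liver 2. In one fit over 30 livers its adjusted p was 0.157. *Igfbp2* differed by 0.86 with Soy-20% + SAA (interval 0.32 to 1.40, adjusted p = 0.0422), by 0.97 without libraries 3 to 6 (adjusted p = 0.109) and by 0.66 with Soy-20% (adjusted p = 0.237), and its call was lost in 14 of 24 fits that left out a liver (highest adjusted p = 0.0753). Those were the fits without Cas-20% liver 1, 4, 5 or 6, Cas-5% liver 2, 3 or 4, Soy-10% liver 1, 2, 3 or 6, or Soy-20% + SAA liver 3, 4 or 6.

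For *Igf1* no difference of effects was detectable (−0.13, interval −0.37 to 0.11, adjusted p = 0.523). The value was −0.17 without libraries 3 to 6 (adjusted p = 0.617), and with Soy-20% as control it was −0.20 (interval −0.44 to 0.03, adjusted p = 0.339). The first interval reaches from a fall on casein that was deeper by 0.37 log2 units to one that was shallower by 0.11. *Socs2* and *Cish* had intervals over 2 log2 units wide, from −0.65 to 1.87 and from −2.34 to 1.18. For *Igfbp3* the value went from −0.96 (adjusted p = 0.155) to 0.09 without libraries 3 to 6 (adjusted p = 0.918), and for *Igfbp4* from 0.09 (adjusted p = 0.727) to −0.16 (adjusted p = 0.623).

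**Figure D3:**
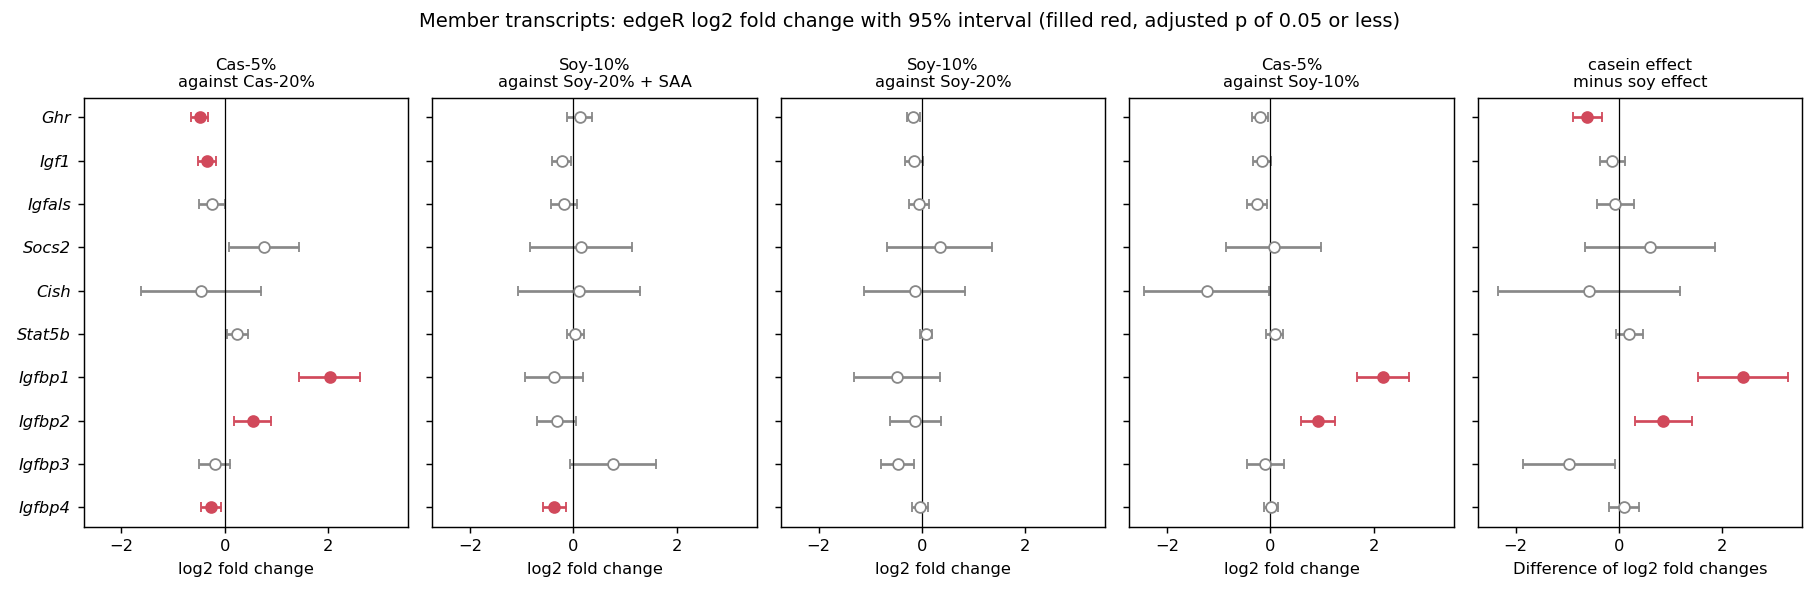
Log2 fold changes of the 10 members (horizontal axis) in 4 comparisons of diets, and in the last panel the casein effect minus the soy effect (Soy-20% + SAA as control), from edgeR; points are estimates, lines 95% intervals, and filled red points passed an adjusted p of 0.05. *Igfbp1* is at 2.03 on casein restriction and −0.38 and −0.48 on soy restriction, and its difference of effects is 2.40.

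The order of the 5 diets was read from mean log2(normalised count + 1), and diets next to each other were compared with a two-sided exact permutation test. Of 40 neighbouring pairs over the 10 members, 6 had an unadjusted p under 0.05 and 0 passed after Benjamini-Hochberg adjustment. The smallest p that 6 against 6 allows is 0.00216, which becomes 0.0866 after adjustment here for the only pair to reach it. That pair was *Igfbp1* in Cas-5% against Soy-20% + SAA, the next diet, 1.80 log2 units apart. The order of *Igfbp1* went on with Soy-20%, Cas-20% and Soy-10%, with steps of 0.10 to 0.16.

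*Ghr* was highest in Cas-20%, followed by Soy-20% (exact p = 0.0173 between them), Soy-10% (0.0108 from Soy-20%), Soy-20% + SAA and Cas-5%. Soy-20% + SAA did not differ beyond the spread from either neighbour, Soy-10% (0.266) or Cas-5% (0.608). *Igf1* was highest in Soy-20% + SAA, then Cas-20%, Soy-20%, Soy-10% and Cas-5%, with no neighbours apart at an unadjusted exact p under 0.05. *Igfbp3* was highest in Soy-20% (exact p = 0.00866 against Cas-20%) and lowest in Soy-20% + SAA, where libraries 3 to 6 held 20.1 to 28.0 counts. Cas-20%, Soy-10% and Cas-5% lay between, 0.11 log2 units apart at each step. Without those 4 libraries Soy-20% + SAA came next after Soy-20%, 0.17 log2 units below it. *Igfbp2* was highest in Cas-5% (exact p = 0.0216 against Cas-20%), followed by Cas-20%, Soy-20% + SAA, Soy-20% and Soy-10%. *Igfbp4* was highest in Soy-20% + SAA and Cas-20%, and lower in Soy-20% (exact p = 0.0368 against Cas-20%), Soy-10% and Cas-5%. Cas-20% came first without libraries 3 to 6, 0.16 log2 units above Soy-20% + SAA. Without them Soy-20% + SAA also moved for *Ghr*, to a place between Soy-20% and Soy-10%, for *Igf1*, to just below Cas-20% (by 0.0084), and for *Igfbp2*, to just above Cas-20% (by 0.11), while the order of *Igfbp1* stayed as given.

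With all libraries, no neighbours differed at an unadjusted exact p under 0.05 for the remaining members. *Igfals* was ordered Soy-20% + SAA, Soy-20%, Soy-10%, Cas-20% and Cas-5% from the highest down, but without libraries 3 to 6 Soy-20% + SAA stood below Cas-20%. *Stat5b* was highest in Cas-5%, then Soy-10%, Soy-20% + SAA, Soy-20% and Cas-20%. *Socs2* also had its highest mean in Cas-5% and its lowest in Cas-20%, and *Cish* its highest in Soy-20% and its lowest in Cas-5%. The highest mean of both *Stat5b* and *Socs2* was that of Soy-20% + SAA once libraries 3 to 6 were left out, and Soy-10% and Soy-20%, then neighbours for *Stat5b*, had an exact p of 0.0216.

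The spread within a diet varied widely among the members. Over 8744 genes with a mean of at least 50 normalised counts the median SD within diets was 0.18 on the log2 scale. *Cish* had 1.17, at the 99.9 percentile, *Socs2* 0.88, at the 99.5 percentile, and *Igfbp1* 0.67, at the 98.9 percentile. *Igfbp3* had 0.54, with Soy-20% + SAA libraries 3 to 6 included, and *Igfbp2* 0.42. *Igf1* (0.14), *Stat5b* (0.14) and *Ghr* (0.16) were below the median gene. Mice on the same diet were thus close in receptor and hormone transcript and far apart in the transcripts of the feedback inhibitors.

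Among the 45 pairs of members, 1 was correlated across livers after diet means were removed and p-values were adjusted. *Socs2* and *Cish*, both direct STAT5 targets, had Pearson's r = 0.659 (n = 30 livers, permutation p = 0.00037, adjusted p = 0.0166) and Spearman's rho = 0.587 (permutation p = 0.00145, adjusted p = 0.0652). Without the 2 livers farthest from the median of *Socs2*, r was 0.522, and without the 4 Soy-20% + SAA libraries it was 0.667. Within diets of 6 livers, r was highest in Cas-20% (0.979), followed by Cas-5% (0.773), Soy-10% (0.725) and Soy-20% + SAA (0.718), and it was lowest in Soy-20% (0.0704). Whether r differed between diets was not tested. Neither gene was correlated with *Igf1* after adjustment.

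**Figure D4:**
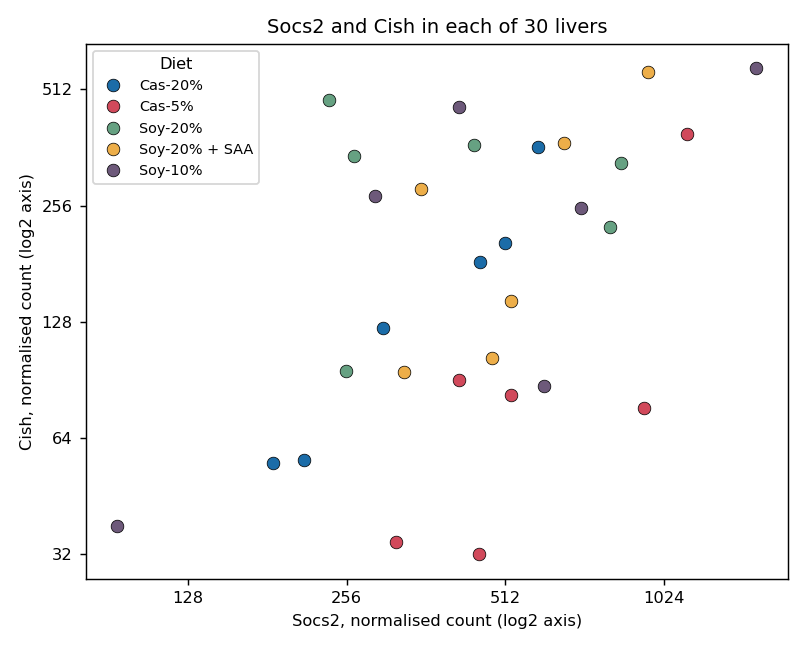
*Cish* against *Socs2* in each of 30 livers (normalised counts, both axes on a log2 scale), coloured by diet. Livers with more *Socs2* held more *Cish* in 4 of the 5 diets, and the r of the green Soy-20% points was 0.0704.

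The genes closest to 3 of the members over the 30 livers, by Spearman's rho of log2 CPM (counts scaled to library size) among 8734 genes, are given as a description that includes differences between diets and libraries. For *Igf1* they were *Urah* (0.697), *Acadsb* (0.691) and *Ikbkb* (0.683). For *Socs2* they were *B3galt1* (0.841), *Marchf7* (0.770) and *Zcchc2* (0.750). For *Igfbp1* they were *Chka* (0.792), *Dapk1* (0.716) and *Epc2* (0.716). Without the 4 libraries these values ran from 0.627 to 0.846.

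Other genes of the pathway were counted from lists chosen by function. Of 19 genes of growth hormone receptor signalling, 17 were tested on casein restriction and 4 rose, with none lower: *Irs2* (0.80, adjusted p = 7.79e-05) and *Irs1* (0.40, adjusted p = 0.0399), adaptors below the insulin and IGF1 receptors, *Ptpn11*, a phosphatase that acts on the receptor complex (0.28, adjusted p = 0.00493), and *Prlr*, the prolactin receptor (0.53, adjusted p = 0.0341). Over all genes 24.9% were called, so the count of 4 of 17 is near the background. The list's median log2 fold change was 0.14, against 0.02 over all genes. *Jak2*, the receptor's kinase, was at 0.27 (adjusted p = 0.126). On soy restriction *Ptpn11* rose (0.22, adjusted p = 0.0288) and *Shc1* fell (−0.30, adjusted p = 0.0362), and without Soy-20% + SAA libraries 3 to 6 they were nearly as large, at 0.22 (adjusted p = 0.232) and −0.27 (adjusted p = 0.336), in a comparison with 2 control livers. The difference of effects was called for *Irs2* (0.69, adjusted p = 0.0242) and *Grb2* (−0.31, adjusted p = 0.0481). Without libraries 3 to 6 these were 0.88 (adjusted p = 0.0279) and −0.11 (adjusted p = 0.632), and against Soy-20% as the control *Irs2* was at 0.43 (adjusted p = 0.313).

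Of 12 other IGF ligands, receptors, binding proteins and proteases, 8 were in the tables and 6 were tested on casein. *Igf2r*, which clears IGF2, fell by 0.36 log2 units (adjusted p = 0.0079) and *Igfbp7* rose by 0.39 (adjusted p = 0.0194). *Igf1r*, the IGF1 receptor, was at 0.11 (adjusted p = 0.585). On soy restriction *Igf2r* was 0.79 higher (adjusted p = 0.0465), with 207 ± 106 (SD, n = 6) counts in Soy-20% + SAA livers and 356 ± 25.5 (SD, n = 6) in Soy-10% livers. Without libraries 3 to 6 it was at 0.09 (adjusted p = 0.715). The difference of effects for *Igf2r* was −1.15 (adjusted p = 0.0143), −0.46 without those libraries (adjusted p = 0.108) and −0.43 with Soy-20% as control (adjusted p = 0.0271).

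Liver genes whose sex bias depends on the pulse pattern of growth hormone were counted in both directions. Of 17 male-biased genes, 16 were tested on casein restriction, where 5 fell and 1 rose, with a list median of −0.18 against 0.02 over all genes, which became 0.02 with the 3′ GC slope as a covariate. Of all genes 13.3% fell and 11.6% rose. *Cyp4a12b* fell by 3.40 log2 units (adjusted p = 8.35e-07), *C4a* by 1.31 (adjusted p = 3.91e-05) and *Cyp4a12a* by 1.06 (adjusted p = 9.33e-05), the first and last being P450 hydroxylases of fatty acids. Other classical male-biased genes did not pass, among them *Mup20* (0.16, adjusted p = 0.504) and *Elovl3* (−0.11, adjusted p = 0.781). On soy restriction 2 of 16 fell and 1 rose, near the 17.0% of all genes called, with *Cyp4a12b* at −2.07 (adjusted p = 0.000134) and at −2.11 without libraries 3 to 6 (adjusted p = 0.00204). *C4a* also fell, from 124 ± 22.0 (SD, n = 6) normalised counts in Soy-20% + SAA livers to 66.4 ± 17.1 (SD, n = 6) in Soy-10% livers. Its call was lost without libraries 3 to 6 (−0.63, adjusted p = 0.142). *Gstp1* rose, from 439 ± 169 (SD, n = 6) to 840 ± 229 (SD, n = 6), and was still called without those libraries (1.26, adjusted p = 0.0133). The difference of effects was called for *Cyp4a12a* (−0.93, adjusted p = 0.0128) and *Cyp4a12b* (−1.33, adjusted p = 0.0394). Without libraries 3 to 6 they were at −0.99 (adjusted p = 0.0703) and −1.30 (adjusted p = 0.197), and with Soy-20% as control at −1.05 (adjusted p = 0.00332) and −1.99 (adjusted p = 0.00225). *Cyp4a12a* and *Cyp4a12b* have near-identical sequences, so the split of reads between them is uncertain.

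Of 21 female-biased genes, 12 were in the tables and 10 were tested on casein restriction, where 3 rose and 3 fell, against 24.9% of all genes called in either direction, with a list median of 0.51. *Cyp2c40* rose by 2.41 (adjusted p = 1.33e-06), *Cyp39a1*, an oxysterol hydroxylase, by 2.09 (adjusted p = 8.26e-07), and *Ntrk2*, a neurotrophin receptor, fell by 2.98 (adjusted p = 1.65e-05). *Cyp2c40* belongs to a family of similar genes whose reads could be split or shared. On soy restriction 3 of 8 tested were called, against 17.0% of all genes. *Cyp2c40* was 2.02 higher (adjusted p = 0.00186) and *Cyp39a1* 1.48 higher (adjusted p = 0.000602), and *Atp6v0d2* was 1.79 lower (adjusted p = 0.002). Without Soy-20% + SAA libraries 3 to 6 these were at 2.46 (adjusted p = 0.0408), 1.36 (adjusted p = 0.0173) and −1.32 (adjusted p = 0.1), so the lower call of *Atp6v0d2* was lost. Some of these genes had low counts in 1 diet. *Cyp2c40* had a mean of 8.2 normalised counts in Soy-20% + SAA livers, *Atp6v0d2* 8.9 in Soy-10% livers and *Ntrk2* 5.0 in Cas-5% livers.

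**Figure D5:**
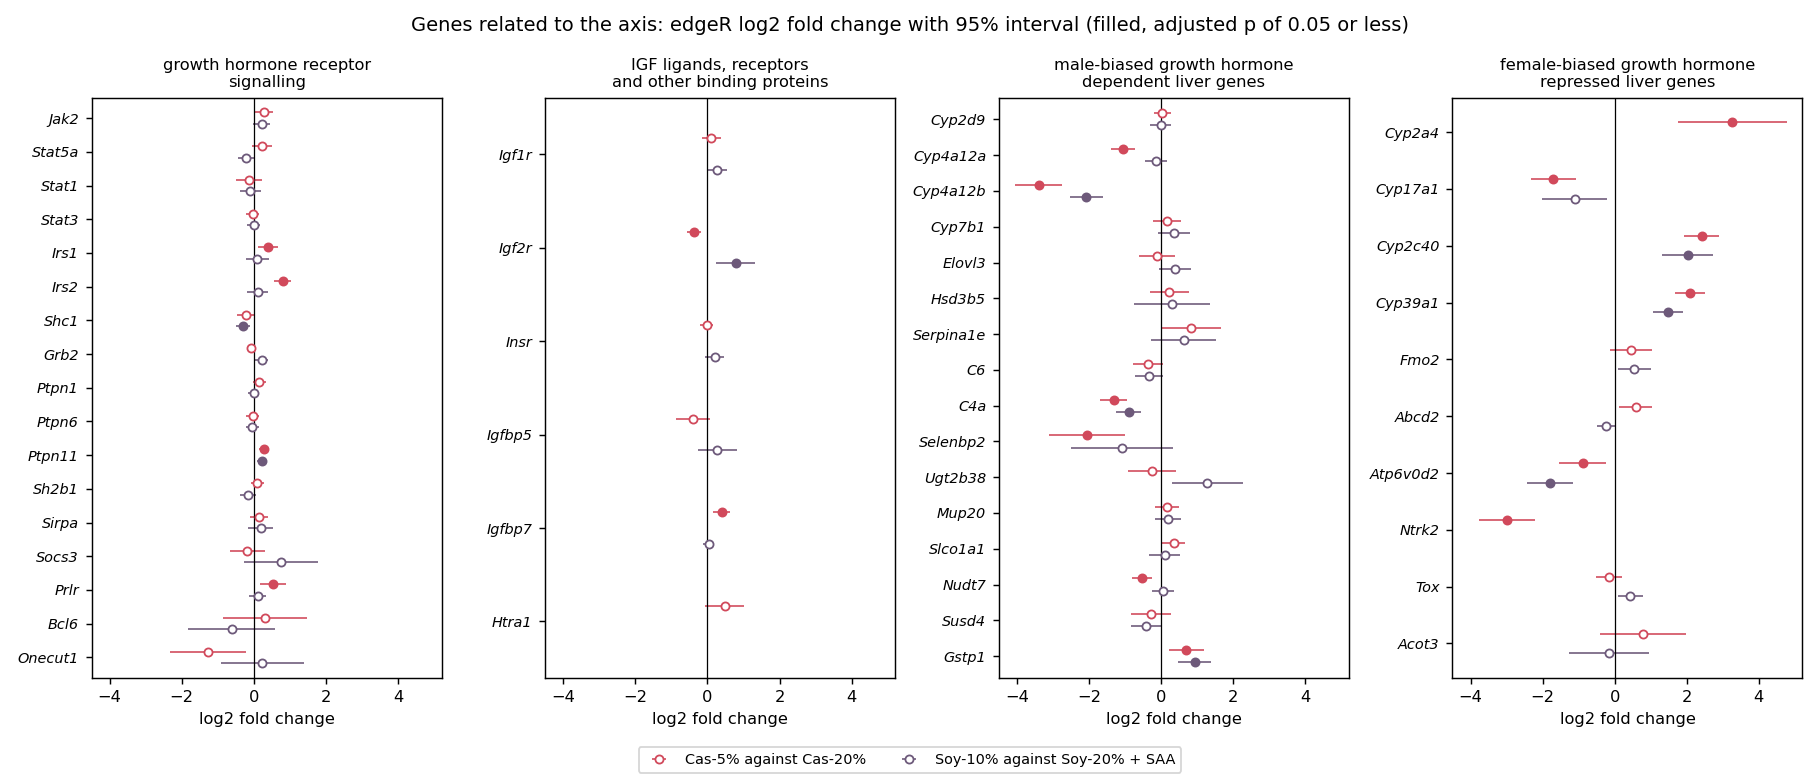
Log2 fold changes with 95% intervals (horizontal axes) of the tested genes of 4 lists related to the axis, for Cas-5% against Cas-20% (red) and Soy-10% against Soy-20% + SAA (purple), from edgeR; filled points passed an adjusted p of 0.05. *Irs2* is at 0.80 on casein restriction, *Cyp4a12b* is at −3.40 and −2.07, and *Igf2r* is at −0.36 and 0.79, the latter 0.09 without Soy-20% + SAA libraries 3 to 6.

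Other groups of liver genes moved in the same comparisons. Of 10 acute phase genes, 4 fell and 1 rose on casein restriction, where 13.3% of all genes fell and 11.6% rose, led by *Orm1* (−3.38, adjusted p = 2.59e-07), which was at −0.34 on soy (adjusted p = 0.189). Of 7 hepatocyte markers 3 fell and 1 rose on casein, against the same shares, the largest being the urea cycle enzymes *Ass1* (−2.39, adjusted p = 3.81e-08) and *Cps1* (−1.40), with albumin (*Alb*) at 0.35 (adjusted p = 0.011). The summed level of these markers ran from 811707 to 930574 in Cas-20% livers and from 839308 to 1056360 in Cas-5% livers. Stellate cell and fibroblast markers, 6 of 6 listed, summed to 3273 to 4127 in Cas-20% and 3799 to 5168 in Cas-5% livers, with *Reln* and *Dcn* called higher. Sinusoidal endothelial markers, 6 of 6, summed to 2495 to 2881 and 2813 to 3131, with *Oit3* and *Kdr* called higher. They did not all rise. Mean *Pecam1* went from 309 in Cas-20% to 264 in Cas-5% livers and *Lyve1* from 266 to 231, while *Stab2* went from 239 to 268 and *Clec4g* from 797 to 902, none of them called. Kupffer cell markers, 6 of 6, summed to 1788 to 2974 and 1768 to 2838, and cholangiocyte markers, 5 of 5, to 399.8 to 617 and 367 to 510.2. On soy restriction 1 of 6 endothelial markers was called, against 17.0% of all genes. This was *Oit3*, at 0.35 (adjusted p = 0.0271), and at 0.19 without Soy-20% + SAA libraries 3 to 6 (adjusted p = 0.386). The list's median log2 fold change was −0.03, and 0.09 without those libraries. Its summed level ran from 2700 to 3067 in Soy-10% livers and from 2652 to 3317 in Soy-20% + SAA livers. Of 6 Kupffer cell markers 1 was called, *Marco*, which was 2.35 higher (adjusted p = 0.0162). It was above all control livers in 6 of 6 Soy-10% livers, with 62.6 to 669.7 against 15.5 to 47.9 normalised counts. Without those libraries it was at 2.33 (adjusted p = 0.271). The Kupffer list's median was 0.22, and 0.35 without those libraries. Its sums overlapped, at 2038 to 3966 in Soy-10% livers and 2046 to 2639 in Soy-20% + SAA livers. Also on soy, cholangiocyte markers summed to 265.6 to 352 in Soy-10% livers and 346 to 519 in Soy-20% + SAA livers, with *Sox9* at −0.62 (adjusted p = 0.00157), and at −0.83 without those libraries (adjusted p = 0.0017). On casein as on soy, 2 of these 5 markers passed the filter on low counts. On soy they were *Sox9* and *Spp1*, with means of 174 and 120 in Soy-10% livers and 266 and 146 in the control, so the sum is mostly theirs. *Spp1* was called only without those libraries (−0.59, adjusted p = 0.0327). Means of *Krt19*, *Krt7* and *Epcam* were at most 9.99, higher in Soy-10% livers for *Krt19* and *Krt7* and lower for *Epcam*. The part of these groups of genes in the changes of *Igf1*, *Ghr* and the binding proteins was not tested. *Cfd*, the one adipocyte marker of 4 listed that was in the tables, fell by 1.77 on casein restriction (adjusted p = 0.0115). On soy restriction it was at 0.64 and was not called.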

How the data were processed

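The authors made QuantSeq 3′ libraries from total liver RNA, ran the QuantSeq pipeline FWD 2.3.6 (GRCm38, mm10) and deposited raw counts per gene, without normalization. Aligner settings were not given in the sources used here. The second deposited table is a normalized signal: counts that the authors divided by DESeq2 1.30 size factors, called normalised counts here. The 10 members and all lists were chosen with earlier results of these data known.

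Genes were kept by filterByExpr, scaled by TMM and tested with the quasi-likelihood F test of edgeR 4.0.16 (R 4.3.3), with Benjamini-Hochberg adjustment over all genes tested and a threshold of 0.05. Only the diets compared entered a fit. Alternatives were DESeq2 1.42.0 size factors and tests, no filter, a replicate block, one fit over 30 livers, each liver left out, no Soy-20% + SAA libraries 3 to 6, and as a covariate the slope of counts with GC content of transcript 3′ ends (last 200 bases, GENCODE M21, 11967 genes). Orders and correlations used log2 normalised counts (pseudocount 1) or log2 CPM (prior count 2), with scipy 1.17.1. In counts simulated for Cas-5% against Cas-20% (11959 genes) with planted changes of 1 or 2 log2 units, edgeR called 198 of 200 changed genes and 14 unchanged ones. It called 195 of 200 for Soy-10% against Soy-20% + SAA. For the difference of effects it called 175 of 200, with 77 of 100 at 1 log2 unit. Changes under 1 log2 unit, as most members had, were not simulated. The simulated libraries also had no 3′ GC trend, so recovery under the trend of Soy-20% + SAA libraries 3 to 6 was not tested. Of 435 pairs of libraries 0 were identical. Named genes were the members, up to 3 genes per list and comparison with the smallest adjusted p, and the 3 genes most correlated with *Igf1*, *Socs2* and *Igfbp1*. *Jak2* and *Elovl3* were added after their values were seen.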

Additional observations from a re-analysis of the deposited data

Results flagged for a closer look

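Single livers stood away from the other 5 of their diet in 6 of 50 groups of 6 livers tested with Dixon's criterion on untransformed normalised counts. Its rate of about 1 in 20 by chance holds for normally distributed values, which was not checked here. All 6 were the highest liver of their group. *Igf1* was 12764.2 normalised counts in Soy-10% liver 1, with the next liver at 10476.6. *Cish* was 391.8 in Cas-5% liver 1, with the next at 90.7. *Igfbp1* was 1983.9 in Soy-20% liver 1, with the next at 564.4. *Igfbp2* was 2513.6 in Cas-5% liver 3, with the next at 1820.6. *Igfbp4* was 18732.4 in Soy-20% liver 3, with the next at 15371.5, and 17322.1 in Soy-10% liver 4, with the next at 15145.7. Soy-10% liver 4 is the liver with 7392 summed counts of pancreatic acinar markers, and its part in the *Igfbp4* value was not tested.

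The effect of restriction differed between casein and soy in the edgeR test of the difference for *Igfbp1* (2.3993 log2 units with Soy-20% + SAA as the soy control, 2.4986 with Soy-20%) and *Ghr* (−0.6128 and −0.3302), and for *Igfbp2* with Soy-20% + SAA as control (0.8604). The values of *Ghr* and *Igfbp2* without Soy-20% + SAA libraries 3 to 6 did not pass the threshold, as given in the report.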

How the results depend on the processing

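Among the members, 1643 values under alternatives kept their side of the threshold, 45 no longer passed and 32 newly passed. None that was called reversed. Of the 1643, 60 estimates that were not called changed sign. Counts of called members that moved by over 1.5 times are given here, and the cause was not tested beyond the smaller number of samples. Leaving out each liver gave 3 to 7 members for Cas-5% against Cas-20% (5 with all livers, 3 without Cas-20% liver 4) and 0 to 2 for Soy-10% against Soy-20% + SAA (1 with all livers, 0 without Soy-10% liver 2, 3, 5 or 6 or Soy-20% + SAA liver 4 or 6, and 2 without Soy-20% + SAA liver 1 or 2). It gave 0 to 2 for Soy-20% and for Cas-20% against Soy-20% + SAA (0 with all livers, with the calls appearing without Soy-20% + SAA liver 1 or 2), and 1 to 2 for the difference of effects with Soy-20% as control (2 with all livers). For Soy-10% against Soy-20% + SAA, 0 members were called with the GC covariate, 0 without libraries 3 to 6 and 3 in one fit over 30 livers. That fit called 3 for Soy-20% against Soy-20% + SAA, 2 for Cas-20% against Soy-20% + SAA and 1 for the difference with Soy-20% as control. DESeq2 called 1 for Cas-20% against Soy-20% + SAA. Without libraries 3 to 6 the difference of effects had 1 member in place of 3. With the GC covariate 4 members differed among the 5 diets in place of 7.

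Replicate numbers are shared between diets, but same-numbered livers correlated from −0.242 to 0.342 and 10 of 60 correlated best with their own number, so the numbers do not pair the livers. With the replicate block the number of called members stayed at 5 for Cas-5% against Cas-20%, 1 for Soy-10% against Soy-20% + SAA, 3 and 2 for the differences of effects and 7 among the 5 diets. It went from 2 to 3 for Cas-5% against Soy-10%, where *Cish* was added (−1.33, adjusted p = 0.049). *Igfbp3*, with 21 to 125 raw counts per library, and *Cish*, with as few as 33, are the members whose precision depth limits most.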
